A study of Mus musculus with 16 samples.

Results

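The Sp family of transcription factors is followed here through 6 of its genes, Sp1, Sp2, Sp3, Sp4, Sp8 and Sp9. They were chosen by name: the rows of the count table whose Ensembl identifier carries these symbols were taken, which gave 6 rows of 53801. Bulk RNA of cortex and striatum was sequenced from mice at 10 days of age, in order to find the genes that change when Trrap, the scaffold of several histone acetyltransferase complexes, is deleted in forebrain neurons. There were 4 control and 4 Trrap-FBΔ libraries for each tissue, 16 in all. By the numbers in their titles, 7 mice gave a library of both tissues. The question asked of the family was whether the relatives of Sp1 moved with it and which of them were regional.

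All mice were of the strain C57BL6/J-129sv, both sexes were used, and every mouse carried the Camk2-Cre transgene. Females outnumbered males in Trrap-FBΔ and males outnumbered females in control striatum, so genotype and sex were partly mixed there. Control mice carried a floxed Trrap allele on a single copy (Trrap Fl/+; Camk2-Cre tg), on which Cre acts in them too, and Trrap-FBΔ mice carried it on both copies (Trrap Fl/Fl; Camk2-Cre tg). The study's methods name a Camk2a promoter for the Cre, a promoter of forebrain glutamatergic neurons, and the cells in which Cre acted were not measured here. The methods give the line as an inducible CreERT2 and state no tamoxifen for these mice. In bulk tissue, fewer cells of a type and less RNA per cell cannot be told apart.

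Sp proteins bind GC boxes and related GT boxes in promoters through zinc fingers at their carboxy terminus, and they share this binding domain with the Krüppel-like factors (Klf). Sp1 and Sp3 are made in nearly all cells and act at housekeeping promoters, where they can compete for the same boxes. Sp4 is most abundant in neurons, whereas Sp8 and Sp9 are developmental regulators of the ganglionic eminences, the subventricular zone and the interneurons of the olfactory bulb, and Sp9 is also needed for striatopallidal neurons.

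The promoters of the 2 members that changed are shown first, with that of Sp4 as a member that did not pass the test in any comparison. The sequences come from the 250 bases before a RefSeq transcription start in GRCm38.p6, on the strand of the gene, with bases in an annotated exon of the gene left out. Capitals mark the GC box GGGCGG or its complement CCGCCC. The RefSeq start of Sp1 lies inside the annotated gene, so 173 of its 250 bases do too, and 41 of them are exon. The Sp1 bases before the annotated gene are at chr15:102406066-102406142, and those between this exon and the RefSeq start are at chr15:102406184-102406315, on the plus strand. Sp2 has 3 starts in the table, and the outermost, at chr11:96982960-96983209 on the minus strand, is shown with the middle, at chr11:96977712-96977938 and inside the gene. The Sp4 stretch is at chr12:118301441-118301690 on the minus strand.
Sp1 before the annotated gene: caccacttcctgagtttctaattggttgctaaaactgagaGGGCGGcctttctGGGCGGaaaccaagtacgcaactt
Sp1 before the RefSeq start: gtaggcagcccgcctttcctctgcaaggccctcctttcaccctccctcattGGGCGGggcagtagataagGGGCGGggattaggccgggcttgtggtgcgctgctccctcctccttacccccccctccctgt
Sp2 outermost start: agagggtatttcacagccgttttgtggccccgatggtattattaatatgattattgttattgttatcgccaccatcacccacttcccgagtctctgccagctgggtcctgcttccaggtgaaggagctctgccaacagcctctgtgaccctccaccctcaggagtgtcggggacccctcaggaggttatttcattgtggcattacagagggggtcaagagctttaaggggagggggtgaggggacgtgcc
Sp2 middle start: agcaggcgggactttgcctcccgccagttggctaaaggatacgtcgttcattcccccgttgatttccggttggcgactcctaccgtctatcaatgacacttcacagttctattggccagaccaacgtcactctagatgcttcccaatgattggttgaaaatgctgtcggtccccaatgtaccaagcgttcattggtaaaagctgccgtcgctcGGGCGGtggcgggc
Sp4: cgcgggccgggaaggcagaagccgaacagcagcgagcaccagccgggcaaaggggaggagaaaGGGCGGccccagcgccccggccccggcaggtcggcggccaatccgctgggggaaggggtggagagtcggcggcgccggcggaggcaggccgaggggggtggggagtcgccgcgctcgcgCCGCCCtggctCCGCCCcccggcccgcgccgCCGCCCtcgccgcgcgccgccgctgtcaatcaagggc

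Sp1 held 4 GC boxes, all on its own strand, 2 before the annotated gene and 2 inside it, and the 4 boxes of Sp4 comprised 1 on its own strand and 3 on the other. At the start nearest the annotated gene start, Sp3 held 2 boxes in 250 bases and Sp9 held 1, while Sp2 and Sp8 held 0. At starts inside the gene, a second window of Sp3 had 5 boxes, and the middle start of Sp2 and another start of Sp8 each had 1. Of 15046 genes whose RefSeq window spans the annotated start, Sp1 among them, 43.4% held at least 1 GC box in the 250 bases. Among genes tested in the cortex the share was 64.5% of those lower in Trrap-FBΔ, 55.1% of those higher and 57.1% of those not called, and in the striatum it was 60.1%, 55.6% and 57.2%. These shares are a description of the letters in these windows.

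Depth ranged from 28743866 to 48761429 counts per library, and the members were counted with 79 to 3363 reads in each. The deletion itself was not visible as a called change in Trrap RNA: cortex libraries held 153 ± 15.6 CPM (CPM being read counts scaled to a common library size after TMM normalization, mean ± SD, n = 4) in controls and 135 ± 10.3 CPM in Trrap-FBΔ, a log2 fold change of -0.18 (edgeR adjusted p = 0.083), and striatum libraries held 146 ± 5.73 and 141 ± 5.88 CPM (-0.04, edgeR adjusted p = 0.52). In cortex Trrap was called without control mouse 63 (-0.23, edgeR adjusted p = 0.034), without a filter on low counts (-0.18, edgeR adjusted p = 0.046) and with all 16 libraries in a single fit (-0.18, edgeR adjusted p = 0.047). For Trrap-FBΔ brains of the same age the paper reports that the deletion was efficient, citing western blots of forebrain protein and qPCR. Reads from exons outside the deleted part and from cells without Cre activity remain in such a total. The tissue labels were checked against markers. All 5 cortical projection neuron markers were lower in control striatum than in control cortex, but of 8 striatal projection neuron markers only 1 was called higher, and Drd1, a dopamine receptor of striatonigral neurons, was at 29.1 CPM in control cortex and 30.0 CPM in control striatum. Some other genes of these neurons did separate the tissues. Of 5 striatonigral genes, which share Drd1 and Tac1 with the 8 markers, 3 were called higher and 1 lower in control striatum. Isl1 ran from 10.6 to 21.3 CPM in control striatum against 1.11 to 5.28 CPM in control cortex. Of 5 striatopallidal genes 1 was called higher and 0 lower, and Six3 among them ran from 19.6 to 36.1 against 1.91 to 8.23 CPM. The summed level of these 8 markers ran from 217 to 1117 CPM over the control striatum libraries and from 254 to 695 CPM over the control cortex libraries.

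Levels of different genes were compared per kilobase of merged exons. Sp3 was the most abundant member in all 4 groups, with 15.1 ± 0.712 CPM per kb in control cortex, and no library of Sp4 reached the lowest library of Sp3. Sp4 followed with 6.37 ± 0.238 CPM per kb and Sp1 with 5.30 ± 0.575 CPM per kb in control cortex. Sp4 and Sp1 overlapped in both control groups, although Sp4 was above Sp1 in 4 of 4 control cortex libraries and in 3 of 4 control striatum libraries. Sp2 held 3.24 ± 0.445 CPM per kb, Sp9 held 1.46 ± 0.446 and Sp8 held 1.12 ± 0.492 in the same libraries. Sp9 was above Sp8 in every library of all 4 groups, although their ranges overlapped in both control groups.

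**Figure D1:**
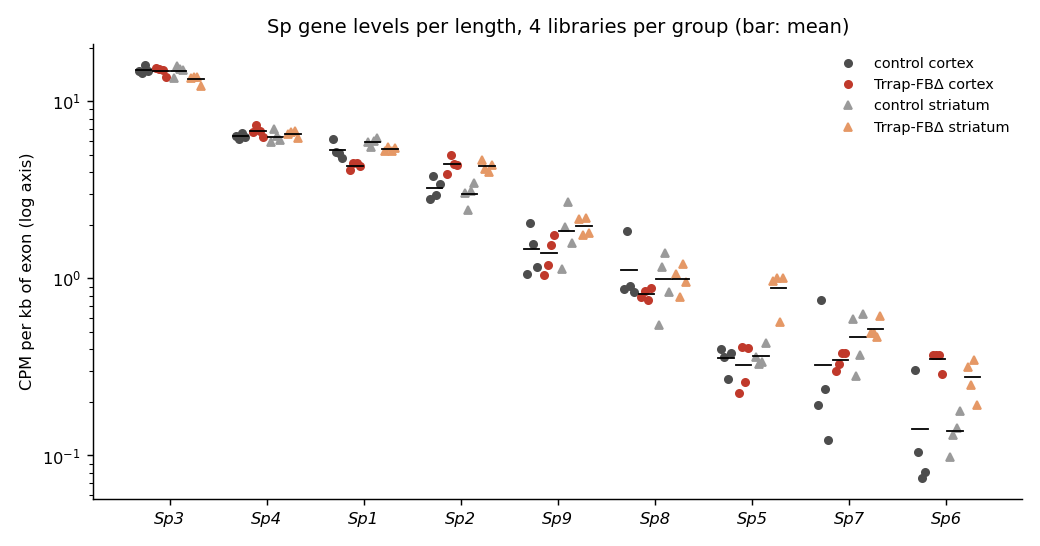
Level per length of the 6 members and of Sp5, Sp7 and Sp6 in the 16 libraries, in CPM per kb of merged exons on a log axis, with 4 points and a mean bar for each group. The order runs from Sp3 at 15.1 CPM per kb in control cortex to Sp6 at 0.141, and in Trrap-FBΔ cortex the points of Sp2 and Sp1 lie at the same height.

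The order changed at a single place among the 4 abundant members. In Trrap-FBΔ cortex Sp2 held 4.42 ± 0.453 CPM per kb and Sp1 held 4.33 ± 0.181, and Sp2 was the higher in 2 of 4 libraries. In control cortex the lowest Sp1 library, at 4.77 CPM per kb, was above the highest Sp2 library, at 3.78. The summed level of all 9 Sp genes was 33.4 ± 1.14 CPM per kb in control cortex and 33.6 ± 1.16 in Trrap-FBΔ cortex, and it was 33.9 ± 2.02 and 34.2 ± 0.991 in the striatum. Sp3 made up 45.2% ± 2.55 of this sum in control cortex and 44.3% ± 2.03 in Trrap-FBΔ cortex. In the striatum it made up 44.0% ± 1.35 in controls and 38.9% ± 1.29 in Trrap-FBΔ.

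Across genotypes 2 of the 6 members were called in the cortex, Sp1 lower and Sp2 higher. There 33.3% of the 18268 genes tested were called by edgeR at an adjusted p under 0.05, so this share equals that of all genes. In the striatum 1 of the 6 members was called, Sp2 higher, against 30.2% of 18872 genes. Sp3, Sp4, Sp8 and Sp9 were called in neither tissue. The 6 members had a median log2 fold change of -0.05 (cortex) and 0.03 (striatum), against 0.00 and -0.01 over all genes tested.

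Sp1, the founding member of the family and a general activator at GC boxes, was at 50.5, 43.0, 42.1 and 39.4 CPM in the control cortex of mice 55, 58, 63 and 64. The Trrap-FBΔ cortex of mice 57, 59, 60 and 61 held 33.8, 37.0, 36.9 and 35.6 CPM. All 4 Trrap-FBΔ libraries lay below all 4 controls, as they did with no overlap in either direction for 32.7% of genes tested. The log2 fold change was -0.29 ± 0.07 (SE), with a 95% interval from -0.45 to -0.13 (edgeR adjusted p = 0.012), and it stayed between -0.34 and -0.21 when any library was left out.

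Striatal Sp1 levels were 48.5, 45.7, 49.2 and 51.0 CPM for controls 58, 63, 64 and 65. The Trrap-FBΔ striatum of mice 57, 59, 60 and 61 held 43.5, 45.7, 43.6 and 45.0 CPM. The groups were separated by the narrow step between 45.71 and 45.74 CPM, where 31.6% of genes tested in this tissue did not overlap. The log2 fold change was -0.13 ± 0.05 (SE), with a 95% interval from -0.24 to -0.02, and it did not pass the test (edgeR adjusted p = 0.065). Without control striatum mouse 63 it was -0.16 (edgeR adjusted p = 0.021).

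Sp2, a member that binds GC boxes weakly and is found at many promoters with CCAAT boxes, was at 9.58, 12.9, 10.1 and 11.7 CPM in the control cortex of mice 55, 58, 63 and 64. The Trrap-FBΔ cortex held 13.2, 17.0, 15.1 and 15.0 CPM in mice 57, 59, 60 and 61, all above the controls. The log2 fold change was 0.44 ± 0.10 (SE), with a 95% interval from 0.22 to 0.66 (edgeR adjusted p = 0.0068). This corresponds to a 1.36-fold higher level.

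The striatum of control mice 58, 63, 64 and 65 held 10.3, 8.29, 10.7 and 11.8 CPM of Sp2. That of Trrap-FBΔ mice 57, 59, 60 and 61 held 15.9, 14.2, 13.6 and 14.8 CPM, again with no overlap. The log2 fold change was 0.51 ± 0.10 (SE), with a 95% interval from 0.28 to 0.74 (edgeR adjusted p = 0.0046). Sp2 was thus the only member called in both tissues, and it remained called there with each library left out in turn and under every other setting tried.

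**Figure D2:**
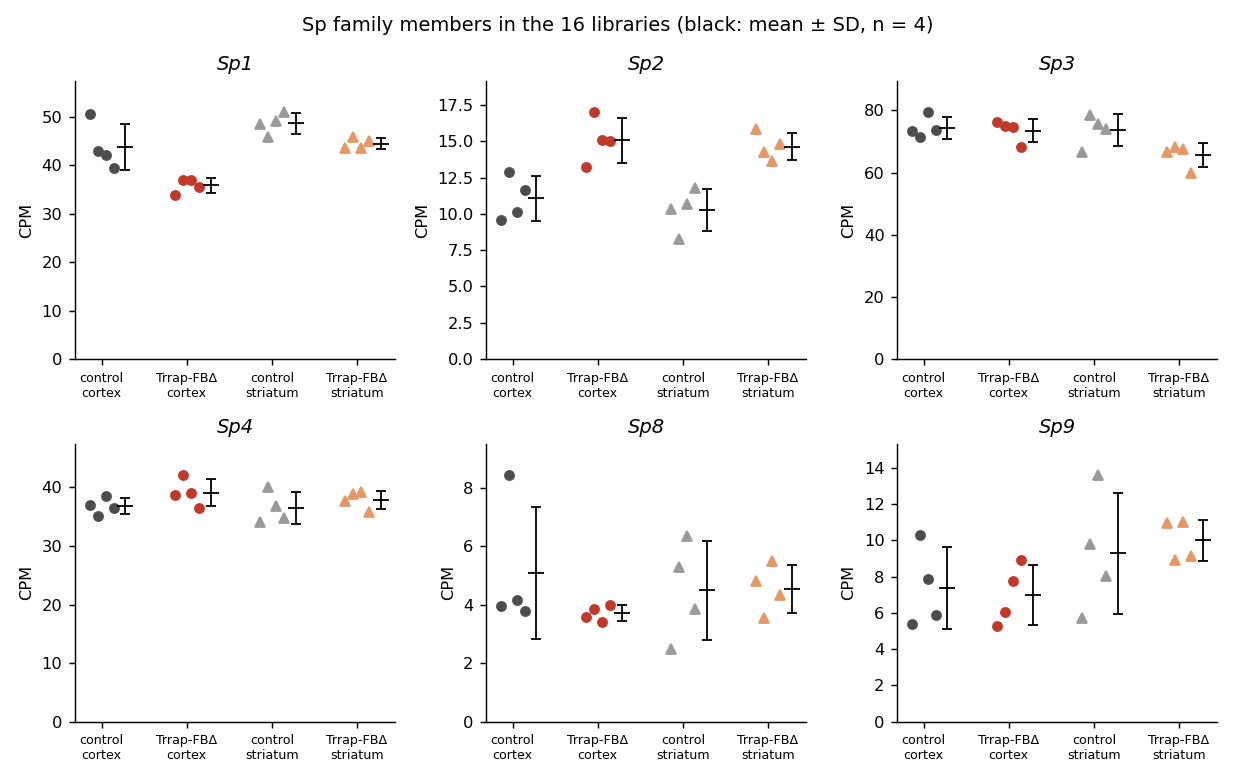
CPM of the 6 members in each library by group, with the mean and SD of 4 libraries in black and axes that start at 0. Sp1 in cortex lies at 39.4 to 50.5 CPM in controls and 33.8 to 37.0 CPM in Trrap-FBΔ, Sp2 moves the other way in both tissues, and a single control cortex library of Sp8 stands at 8.45 CPM.

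Since Sp1 and Sp2 moved in opposite directions, the ratio of their raw counts within a library was computed, which no scaling factor enters. This ratio was chosen after the values had been seen and is given without a test. A fall of Sp1 and a rise of Sp2 both raise it. Sp2 counts over Sp1 counts ran from 0.190 to 0.300 in control cortex and from 0.392 to 0.460 in Trrap-FBΔ cortex. In the striatum the ratio ran from 0.181 to 0.231 in controls and from 0.311 to 0.364 in Trrap-FBΔ. The ratio of Sp1 to Sp3 was lower in every Trrap-FBΔ cortex library, at 0.442 to 0.522 against 0.530 to 0.690. In the striatum it overlapped, at 0.644 to 0.750 against 0.582 to 0.728. Sp2 over Sp3 overlapped in the cortex, at 0.173 to 0.228 in Trrap-FBΔ against 0.127 to 0.181 in controls. It was higher in every Trrap-FBΔ striatum library, at 0.202 to 0.248 against 0.106 to 0.159. Sp1 over Sp4 was lower in every Trrap-FBΔ cortex library and overlapped in the striatum.

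**Figure D3:**
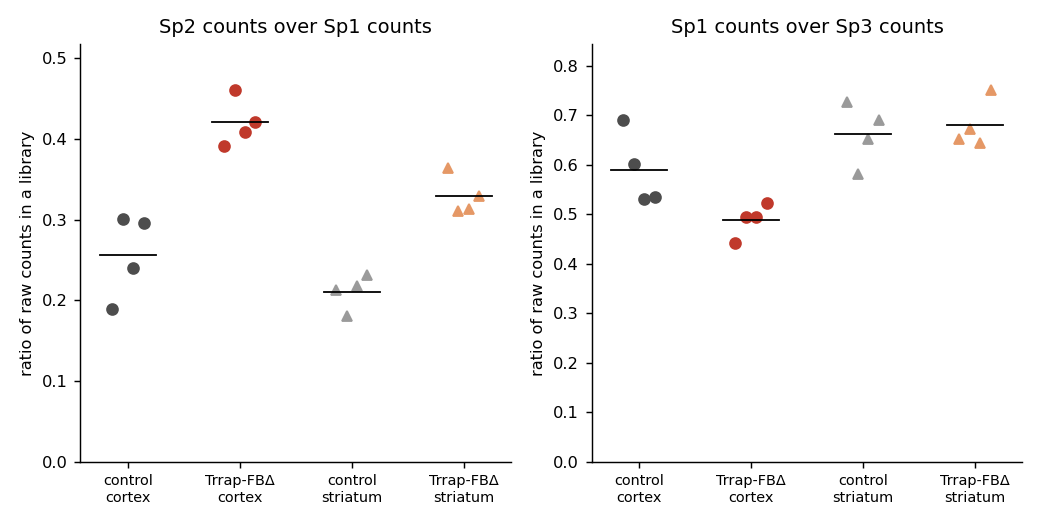
Ratio of raw counts within each library for Sp2 over Sp1 and Sp1 over Sp3, by group, with a mean bar. The Sp2 over Sp1 points of Trrap-FBΔ lie above all controls of the same tissue, at 0.392 to 0.460 in cortex and 0.311 to 0.364 in striatum, and the Sp1 over Sp3 points separate in the cortex alone.

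Sp3, which competes with Sp1 for the same boxes and both activates and represses, was at 71.4 to 79.5 CPM in control cortex and 68.1 to 76.4 CPM in Trrap-FBΔ cortex, with a log2 fold change of -0.02 ± 0.05 (SE, edgeR adjusted p = 0.79). The 95% interval ran from -0.13 to 0.09. In the striatum levels were 66.7, 78.6, 75.5 and 73.9 CPM in controls 58, 63, 64 and 65, with 66.7, 68.1, 67.6 and 59.9 CPM in Trrap-FBΔ mice 57, 59, 60 and 61, so that the groups met at control mouse 58. The log2 fold change of -0.17 ± 0.06 (SE) did not pass the test (edgeR adjusted p = 0.063). It passed in the fit that used all 16 libraries (edgeR adjusted p = 0.032) and without control striatum mouse 58 (edgeR adjusted p = 0.022).

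Sp4, the neuron-enriched member, was at 35.1 to 38.5 CPM in control cortex and 36.4 to 42.2 CPM in Trrap-FBΔ cortex (log2 fold change 0.09 ± 0.06, SE, edgeR adjusted p = 0.27). In the striatum it was at 34.1 to 40.1 and 35.8 to 39.2 CPM (0.05 ± 0.06, SE, edgeR adjusted p = 0.54). The 95% intervals, from -0.04 to 0.21 and from -0.08 to 0.19, ended below those of Sp2 in the same tissue. Genes reported as targets of Sp4 and Sp1 were read beside Sp4. Of 5 NMDA receptor genes 0 were higher and 1 lower in the cortex, with 3 lower in the striatum. Of 10 nuclear genes of cytochrome oxidase 2 were lower in each tissue, Cox5a (-0.28 in cortex and -0.36 in striatum, log2) and Cox7b (-0.25 and -0.34). Over all genes tested 17.6% were lower in the cortex and 15.8% in the striatum.

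Sp8 and Sp9, the members of the ganglionic eminence lineage, were counted less deeply and varied most. Sp8 was at 3.95, 8.45, 4.16 and 3.80 CPM in the control cortex of mice 55, 58, 63 and 64, and Trrap-FBΔ cortex held 3.42 to 4.00 CPM. The log2 fold change of -0.46 ± 0.23 (SE, edgeR adjusted p = 0.14) rested largely on mouse 58. Without that library it was -0.10.
Sp8 in the striatum ran from 2.49 to 6.36 CPM in controls and from 3.56 to 5.51 CPM in Trrap-FBΔ, a log2 fold change of 0.01 ± 0.24 (SE, edgeR adjusted p = 0.97).

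Sp9 was at 5.37, 10.3, 7.89 and 5.87 CPM in the control cortex of mice 55, 58, 63 and 64, and at 5.29 to 8.90 CPM in Trrap-FBΔ cortex (log2 fold change -0.08 ± 0.21, SE, edgeR adjusted p = 0.79). The striatum of control mice 58, 63, 64 and 65 held 5.70, 9.80, 13.6 and 8.05 CPM, with 8.91 to 11.0 CPM in Trrap-FBΔ (0.10 ± 0.21, SE, edgeR adjusted p = 0.74). In the cortex the 95% interval of Sp8 ended at 0.04, below that of Sp2, which began at 0.22. The cortex interval of Sp9 ended at 0.37 and overlapped that of Sp2. In the striatum the intervals of Sp8 and Sp9 reached 0.56 and 0.57 and overlapped that of Sp2, which began at 0.28.

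**Figure D4:**
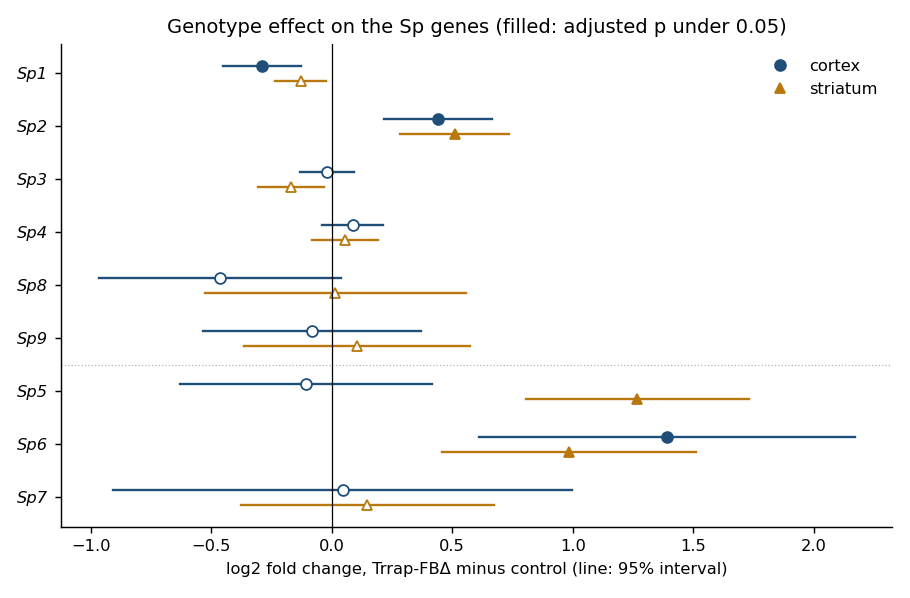
Log2 fold change of Trrap-FBΔ against control for the 6 members and for Sp5, Sp6 and Sp7, with 95% intervals, circles for cortex and triangles for striatum, filled where edgeR's adjusted p was under 0.05. Sp2 is filled on the right in both tissues at 0.44 and 0.51, Sp1 is filled on the left in cortex at -0.29, and the intervals of Sp8 and Sp9 are wide.

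The other Sp genes were near the limit of counting, with 11 to 108 reads in a library. Sp6, a regulator of tooth and skin epithelium, had 32, 17, 11 and 12 counts in control cortex mice 55, 58, 63 and 64 and 51 to 60 counts in Trrap-FBΔ cortex. It was higher by 1.39 on the log2 scale (edgeR adjusted p = 0.012), with an overlap at control mouse 55. In the striatum it had 12 to 30 and 38 to 66 counts and was higher by 0.98 (edgeR adjusted p = 0.011). Sp5, a target of Wnt signaling, had 24 to 40 counts in control striatum and 59 to 108 in Trrap-FBΔ striatum, higher by 1.27 (edgeR adjusted p = 0.0018), while in the cortex it had 22 to 32 and 20 to 41 counts (-0.11, edgeR adjusted p = 0.76). Sp7, the regulator of bone formation, was called in neither tissue (edgeR adjusted p = 0.95 and 0.67).

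Whether the genotype effect differed between tissues was asked of all 16 libraries in a single fit with an interaction term. None of the 6 members was called by edgeR, where 0.437% of 19438 genes were (0.195% higher and 0.242% lower), and 0 had an unadjusted p under 0.05. For Sp1 the effect in striatum minus that in cortex was 0.16 ± 0.09 (SE), with a 95% interval from -0.03 to 0.35 (edgeR adjusted p = 0.50), so the call in cortex and its absence in striatum were not shown to differ. For Sp2 it was 0.07 ± 0.15 (edgeR adjusted p = 0.90). Sp5 had the largest difference of the 9 genes, 1.37 ± 0.33 (SE), and missed the threshold (edgeR adjusted p = 0.075).

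Between the tissues 0 of the 6 members were called in control mice, although 40.4% of 18284 genes were (20.3% higher and 20.1% lower in striatum), and for 38.7% the tissues did not overlap. No member had an unadjusted p under 0.05 in that edgeR fit, and DESeq2 called 0. Sp1 was at 48.6 ± 2.18 CPM in control striatum and 43.8 ± 4.75 CPM in control cortex, a log2 difference of 0.15 with a 95% interval from -0.02 to 0.33 (edgeR adjusted p = 0.14). With the mouse as a block it was 0.21 (edgeR adjusted p = 0.040). Sp9 was 0.33 higher in control striatum, with a 95% interval from -0.25 to 0.91 (edgeR adjusted p = 0.35), and Sp8 was 0.18 lower, with an interval from -0.88 to 0.52 (edgeR adjusted p = 0.68).

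In Trrap-FBΔ mice 3 of the 6 members were called between the tissues, against 54.7% of 18872 genes (27.4% higher and 27.4% lower in striatum). With upper-quartile scaling 60.5% of the genes called were higher there, against 50.0%. Sp1 was at 33.8 to 37.0 CPM in cortex and 43.5 to 45.7 CPM in striatum, 0.31 ± 0.05 higher there on the log2 scale (SE, edgeR adjusted p = 0.00011). Sp9 was at 6.99 ± 1.64 and 10.0 ± 1.13 CPM, 0.51 ± 0.15 higher in striatum (SE, edgeR adjusted p = 0.011). Sp3 was 0.16 ± 0.05 lower in striatum (SE, edgeR adjusted p = 0.019), but not with upper-quartile scaling (-0.10, edgeR adjusted p = 0.15). It also lost the call without Trrap-FBΔ cortex mouse 60 (edgeR adjusted p = 0.050) or Trrap-FBΔ striatum mouse 61 (edgeR adjusted p = 0.055). For Sp1, Sp9 and Sp3 the tissues did not overlap, which held for 50.5% of genes. Sp5 and Sp7 were also higher in Trrap-FBΔ striatum, by 1.43 and 0.58 (log2; edgeR adjusted p = 0.00031 and 0.0046). These comparisons use the same libraries as the genotype comparisons, and a different regional pattern between genotypes is what the interaction term above tested.

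Sp8 and Sp9 rose and fell together over libraries of the same group. The Pearson correlation of their log2 levels, after the group means were removed, was 0.84 over the 16 libraries, and that of Sp3 with Sp4 was 0.82, whereas Sp1 and Sp2 had 0.06. Libraries of the same mouse and a shared library total enter these values.
The genes most like Sp9 over the 16 libraries, of 15391 with a mean of at least 1 CPM, were Dlx6, a homeobox gene of ganglionic eminence derivatives (r = 0.93), Rgs9, a striatal regulator of G protein signaling (r = 0.90), and Adcy5, the main striatal adenylyl cyclase (r = 0.89). For Sp8 they were Dlx5 (r = 0.86), Cdhr1, a protocadherin of olfactory bulb projection neurons (r = 0.84), and Dlx2 (r = 0.81).

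The libraries that set the spread of Sp8 and Sp9 also stood out for these genes. Cdhr1 and Rgs9 had been chosen by correlation over the same libraries, so for them this is no separate result. Cdhr1 was at 62.0 CPM in the control cortex of mouse 58 and at 18.1 to 23.5 CPM in the other control cortex libraries. Rgs9 was at 31.4 CPM in the control striatum of mouse 58 and at 129 CPM in that of mouse 64, the libraries with the lowest and the highest Sp9 of the group. Drd1 was at 7.84 and 59.9 CPM in the same libraries. The part of dissection in these values was not tested.

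In the lists read beside Sp8 and Sp9, no Dlx gene was called between genotypes. Of 8 genes of the subventricular zone and olfactory interneurons (Dlx1, Dlx2, Dlx5, Dlx6, Tshz1, Prokr2, Etv1 and Dcx), 2 were lower in the cortex and 3 in the striatum, namely Etv1 (-0.31 and -0.59, log2) and Dcx (-0.50 and -0.77) in both and Prokr2 (-0.52) in the striatum. Of 5 striatopallidal genes (Drd2, Adora2a, Penk, Gpr6 and Six3) only Gpr6 was called, lower in cortex (-0.39). Of 5 striatonigral genes (Drd1, Tac1, Pdyn, Isl1 and Ebf1) Pdyn was lower in cortex (-0.33) and Ebf1 higher in striatum (0.58). Of 6 interneuron genes of the caudal ganglionic eminence (Prox1, Htr3a, Vip, Nr2f2, Reln and Calb2), Htr3a was higher in cortex (1.10) and Calb2 lower in striatum (-0.39). Over all genes tested 15.7% were higher and 17.6% lower in the cortex, and 14.4% and 15.8% in the striatum. A count of 1 in a list of 5 or 6 is near these shares.

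The genes most like Sp1 over the 16 libraries were Cald1, a caldesmon that binds actin (r = 0.95), Scn3a, a sodium channel of the immature brain (r = 0.95), and Col11a1, a fibrillar collagen (r = 0.94). For Sp2 they were Dnajc16 (r = 0.96), Trappc12, a subunit of a vesicle tethering complex (r = 0.95), and Med23, a subunit of Mediator (r = 0.95). For Sp3 they were Esco1, Sugt1 and Rsbn1l (r = 0.93, 0.93 and 0.91), and for Sp4 N4bp2l2, Sub1 and Zfp280d (r = 0.89, 0.87 and 0.86). Since genotype and tissue are among the things that vary over these libraries, such a likeness is a shared pattern over 4 groups and the mice within them.

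The Klf genes bind the same boxes. Of 15 tested, 6 were lower and 1 higher in the cortex, and 8 were lower and 1 higher in the striatum, where 17.6% and 15.8% of all genes were lower. The median log2 fold change was -0.14 and -0.30. Klf8 fell the most of the family members called in both tissues (-0.94 in cortex and -0.91 in striatum, log2), followed by Klf13 (-0.30 and -0.62), Klf7, a factor of axon growth (-0.34 and -0.42), and Klf12 (-0.41 and -0.35). The member that rose in both was Klf15 (0.34 and 0.26), which was taken from outside the 4 largest after its values had been seen.

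Of 21 tested cofactors and modifying enzymes of Sp proteins, 3 were higher and 6 lower in the cortex, and 4 higher and 5 lower in the striatum, where 33.3% and 30.2% of all genes were called. Called in both were Cdk2 (-0.37 and -0.31, log2) and Mapk3 (-0.26 and -0.20), kinases that phosphorylate Sp1, and Prkcz (-0.20 and -0.29), an atypical protein kinase C. Med23, whose subunit belongs to the coactivator complex used by Sp1, was higher (0.20 and 0.29). Their medians were -0.06 and -0.03.

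Markers of other cell types moved with genotype beside Sp1 and Sp2. All 6 oligodendrocyte lineage markers were lower in the cortex, with a summed level of 1264 to 1852 CPM in Trrap-FBΔ and 1698 to 2796 CPM in controls, and 3 were lower in the striatum. All 4 microglia markers were lower in both tissues, at 153 to 195 against 214 to 243 CPM in cortex and at 134 to 150 against 176 to 210 CPM in striatum. Of 3 endothelial markers 3 were lower in the cortex and 1 in the striatum, at 96.8 to 102 against 110 to 135 CPM and at 87.5 to 110 against 94.5 to 138 CPM. Of 5 neuroblast markers 2 were lower in each tissue, Cd24a (-1.43 and -0.84, log2) and Dcx.
Of 5 astrocyte markers 2 were higher and 2 lower in the cortex, and 2 were higher in the striatum, Gfap (0.28 in cortex and 0.57 in striatum) and Gja1 (0.19 and 0.23) being higher in both. Of the 3 blood and the 3 choroid plexus markers none was called by edgeR in either tissue. Of 6 interneuron markers 1 was higher in the cortex, and 1 was higher and 1 lower in the striatum. Beside these marker counts, 15.7% of all genes tested were higher and 17.6% lower in the cortex, and 14.4% and 15.8% in the striatum. No defining marker was at 0, and the part of cell composition in the values of Sp1 and Sp2 was not tested.

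Members of the family lie in pairs on opposite strands. Sp1 and Sp7 are 39.0 kb apart on chromosome 15, Sp2 and Sp6 are 30.4 kb apart on chromosome 11, Sp3 and Sp9 are 291.5 kb apart on chromosome 2, and Sp4 and Sp8 are 544.9 kb apart on chromosome 12 (GRCm38, GENCODE annotation). Since Sp2 and Sp6 were both called higher in both tissues, the genes tested within 100 kb of each member were counted, after the values had been seen. Around Sp2, at chr11:96953341-96982959, 6 of 10 were higher and 1 lower in the cortex, and 8 of 10 were higher and 1 lower in the striatum, where 15.7% and 14.4% of all genes were higher. Sp6 is among these 10, and without it 5 of 9 and 7 of 9 were higher.

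Genes on both sides of Sp2 were called higher in both tissues. Cdk5rap3 was higher by 0.37 and 0.47 (log2, cortex and striatum), Mrpl10, a mitochondrial ribosomal protein, by 0.45 and 0.35, and Lrrc46 by 0.64 and 0.49. Each wider window contains the narrower ones, and in each more genes were called higher than lower. In the cortex 8 were higher and 3 lower of 19 within 250 kb, 9 and 4 of 23 within 500 kb, and 16 and 12 of 43 within 1000 kb. In the striatum 10 were higher and 1 lower of 19, 11 and 1 of 24, and 15 and 6 of 47. Within 1000 kb 37.2% were thus higher in the cortex and 31.9% in the striatum. Over all genes tested 15.7% were higher and 17.6% lower in the cortex, and 14.4% and 15.8% in the striatum. The strain was a mixed background, and whether the groups differed in the strain origin of this stretch of chromosome 11 was not tested. Around Sp1 the counts were 2 higher and 2 lower of 12 in the cortex and 3 higher and 1 lower of 12 in the striatum. Around Sp4 2 genes were tested, with 0 called in each tissue. Around Sp9 1 of 4 was higher in each tissue, and 1 was lower in the striatum. The only gene tested around Sp3 was higher in both tissues, and around Sp8 0 were tested.

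Antisense transcripts were read apart from the members, since the counting used strand. D030028A08Rik overlaps 126 exon bases of Sp2 on the other strand and was lower, opposite to Sp2, by -0.36 in cortex and -0.43 in striatum (log2; edgeR adjusted p = 0.011 and 0.0018). Sp3os, which overlaps 109 exon bases of Sp3, was higher by 0.80 and 0.87 (edgeR adjusted p = 0.00013 and 0.00017), while Sp3 was at -0.02 and -0.17. Cir1, which overlaps 270 exon bases of Sp9, was not called in either tissue (0.19 and 0.04, log2; edgeR adjusted p = 0.077 and 0.79). These transcripts were named after their values had been seen.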

How the data were processed

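RNA-seq libraries were made from poly(A) RNA with a strand-marking kit. The authors demultiplexed with bcl2fastq 1.8.4, aligned with STAR 2.5.4b to GRCm38 and counted reads on Ensembl genes with featureCounts 1.5.0 in strand-specific mode, and the values they deposited are raw counts per gene in a single table, with no normalization. All 16 columns were matched to libraries by the labels. Replicates are mice, and p-values of the genotype comparisons within a tissue measure the spread between them. The main tissue and interaction fits left the mouse out, so both libraries of an animal counted as independent there. Fits with the mouse as a block were alternatives.

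Symbols, coordinates and merged exon lengths came from GENCODE M21 on the same build, and 53620 of 53801 identifiers had a symbol. The authors' annotation release differs, so lengths are approximate. Quasi-likelihood tests of the counts used edgeR 4.0.16 (R 4.3.3) after filterByExpr and TMM scaling, on the groups compared, over all genes that passed, with Benjamini-Hochberg adjustment and a threshold of 0.05. All 6 members passed the filter in every comparison. Standard errors were derived from the F statistic, and intervals are 95%. Group differences in single CPM values have an exact permutation p of at least 0.029 with 4 against 4 libraries, 2-sided, and were described by overlap. Scripts were tested on simulated data. DESeq2 1.42.0, other scalings, other filters, sex and left-out libraries were alternatives.

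The number in the library titles was read as the mouse, and it pairs the tissues. Deviations from group means correlated at 0.09 to 0.37 in the 7 pairs, with a median of 0.28. Between different numbers they correlated at -0.29 to 0.21, with a median of -0.07, so the ranges overlapped. No libraries were duplicates: the lowest chi-square per degree of freedom between replicates was 8.34.

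The members, the gene lists and the comparisons were chosen with earlier results of these data known. The genes named are the 6 members, Sp5, Sp6 and Sp7, Trrap, up to 4 genes per list called in both tissues with the largest changes, 4 short lists in full and the 3 genes most correlated with each member. Promoter sequences came from RefSeq (GRCm38.p6), with 6 of 6 members matched. Some genes are not reported here.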

Additional observations from a re-analysis of the deposited data

Results flagged for a closer look

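Among the levels of Sp1 to Sp9 and Trrap, 10 genes in 4 groups of 4 libraries, 6 of 40 groups held a library far from the other 3, judged by the gap to its nearest neighbor as a share of the whole range. Chance gives about 1 such group in 20. Sp8 was at 8.45 CPM in the control cortex of mouse 58, where the others were at 3.80 to 4.16 CPM. This library also held the highest Sp9 and Cdhr1 of its group, Cdhr1 having been chosen by its correlation with Sp8. Sp3 was at 59.9 CPM in the Trrap-FBΔ striatum of mouse 61, against 66.7 to 68.1 CPM in the others, and Sp7 was at 2.10 CPM in the same library, against 1.59 to 1.67 CPM.

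The other 3 were genes of few reads. Sp5 was at 1.19 CPM in the Trrap-FBΔ striatum of mouse 60, below the 2.02 to 2.12 CPM of the rest but above all controls. Sp6 was at 1.17 CPM in the control cortex of mouse 55, against 0.286 to 0.402 CPM, and at 1.11 CPM in the Trrap-FBΔ cortex of mouse 61, against 1.41 to 1.42 CPM. The causes were not tested.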

How the results depend on the processing

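The calls of Sp1 in cortex, of Sp2 in both tissues, and of Sp1 and Sp9 between the tissues of Trrap-FBΔ mice held under every alternative run. Sp4, Sp8 and Sp9 were called in no genotype fit. With sex as a covariate the genotype comparison called 5349 genes in cortex, against 6090, and 4312 in striatum, against 5704. In striatum, using all 16 libraries in a single fit brought Sp3 to -0.17 (adjusted p = 0.032) and the members called from 1 to 2. The difference between tissues called 85 genes, against 415 with DESeq2, 195 without a filter, 219 with the mouse block, 2 with sex and 18 to 151 with 1 library left out, and 0 of the 6 members in each. Depth limits Sp5 to Sp7, with 11 to 108 counts.

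With the mouse number as a replicate block, which pairs both tissues of an animal, the control tissue difference of Sp1 was 0.21 (adjusted p = 0.040), making 1 member called in place of 0, and those of Sp4 and Trrap turned to 0.01 and 0.01. The block changed no other call of a member. Upper-quartile scaling turned Sp3 and Sp4 to 0.04 and 0.044 in controls and Sp2 and Sp4 to 0.025 and 0.022 in Trrap-FBΔ, ended the call of Sp3 there (-0.10) and added that of Sp8 (0.36, adjusted p = 0.029). It moved the share of calls that were higher from 50.3% to 59.9% in controls, from 50.0% to 60.5% in Trrap-FBΔ and from 44.7% to 56.3% in the interaction. A minimum of 10 counts in every library turned Sp4 in controls to 0.00050.

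With each library left out in turn, the genotype effect in cortex ran from -0.042 to 0.023 for Sp3, from -0.22 to 0.13 for Sp9, from -0.24 to 0.044 for Sp5 and from -0.24 to 0.91 for Sp7, the last called without control mouse 58 (adjusted p = 0.017). In striatum it ran from -0.16 to -0.11 for Sp1, from -0.21 to -0.13 for Sp3, from -0.18 to 0.22 for Sp8, from -0.066 to 0.34 for Sp9 and from -0.037 to 0.34 for Sp7, and 1 to 2 members were called, 2 of them without control mouse 58 or 63. Between control tissues it ran from 0.10 to 0.22 for Sp1, called without cortex mouse 55 (adjusted p = 0.015), from -0.040 to 0.03 for Sp3, from -0.053 to 0.02 for Sp4, from -0.39 to 0.18 for Sp8, from -0.054 to 0.11 for Sp5 and from -0.15 to 0.67 for Sp6, with 0 to 1 members called, and Sp7 was called without cortex mouse 58 (1.34, adjusted p = 0.014). Between Trrap-FBΔ tissues it ran from -0.10 to 0.018 for Sp2, from -0.20 to -0.12 for Sp3 and from 0.19 to 0.39 for Sp8, called without striatum mouse 59 (adjusted p = 0.013). The difference between tissues ran from -0.017 to 0.14 for Sp2, from -0.064 to 0.023 for Sp4, from -0.026 to 0.42 for Sp9 and from -0.77 to 0.38 for Sp7, and Sp5 was called without Trrap-FBΔ striatum mouse 60 (1.54, adjusted p = 0.021), with DESeq2 (1.38, adjusted p = 0.017) and without a filter (1.38, adjusted p = 0.040). The cause of these shifts was not tested.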
